A study of Mus musculus with 10 samples.

Results

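The sarcomere, the contractile unit of striated muscle, is held together by a scaffold of non-motor proteins. The Z-disc anchors thin filaments through alpha-actinin and its partners, the M-band ties thick filaments together, titin spans from the one to the other, and nebulin runs along the thin filament. When C2C12 myoblasts are moved to low-serum medium they leave the cell cycle, fuse into myotubes and switch on these genes, many of which are also known as disease genes of skeletal or heart muscle. The 36 genes described here were chosen by name, from general knowledge of the sarcomere and with earlier results of these data known. They were looked up by symbol among the 23417 genes of the expression tables. Each of the 36 was present. By place in the sarcomere they form 8 classes, namely titin and nebulin, the M-band, myosin-binding proteins, the Z-disc core, stretch sensors between Z-disc and I-band, thin filament ends and assembly, the intermediate filament, and a muscle methyltransferase.

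RNA was sequenced from C2C12, a mouse myoblast cell line, in 10 libraries that the authors summarized as 4 tables. Cells in growth medium (D0) and after 6 days in differentiation medium (D6) were compared between a control labelled wildtype and Huwe1 knockdown, and cells differentiated for 8 days (myotubes) between a control carrying a non-targeting RNA and Huwe1 knockdown. A further table set cells that overexpressed USP10 from a cDNA driven by the EF1a promoter, after 6 days of differentiation, against a control whose column carries the same name as the D6 control. Huwe1 is a ubiquitin ligase and USP10 a deubiquitinase, and the study asked how raising or lowering them bears on the TATA-binding protein TBP and on differentiation. The knockdowns used lentiviral shRNAs, with each knockdown group made of 2 libraries that carried a hairpin each. In the myotubes the virus was added on day 4, when differentiation was under way, and puromycin selection followed. For the earlier knockdown the methods describe infection of myoblasts, also with puromycin selection. The wildtype controls of D0 and D6 carried no hairpin by their labels, so that in these comparisons the effects of Huwe1 loss and of infection cannot be told apart. The USP10 cells, a stable line, were 1 library, as was each of the D0, D6 and myotube controls. The control of the USP10 table has no library of its own among the 10.

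The hairpins are shown because they define the knockdown groups, and because the labels give other ones for D0 and D6 than for the myotubes. The methods list the myotube pair alone, for myoblasts and myotubes alike, and the labels were followed here. Each matched Huwe1 transcripts and no other gene in the GENCODE annotation of GRCm38, on the plus strand of chromosome X, with exons counted from the start of the matched transcript.
D0 and D6, first hairpin: gggaacctgtgattcgaga
D0 and D6, second hairpin: gagaagaggacaactagta
Myotubes, first hairpin: gcactcttcataactcacttt
Myotubes, second hairpin: gcactgctcatcaaagatgtt
The first lies within coding exon 32 (chrX:151883185-151883203). The second runs across the junction of exons 8 and 9 (chrX:151852544-151853408, intron included). The first myotube hairpin lies in the 3′ UTR in exon 83 (chrX:151934876-151934896), and the other runs across the junction of exons 19 and 20 (chrX:151862387-151862654, intron included).

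Every value is an FPKM, a fragment count divided by the length of the transcript and by the size of the library, so levels of different genes may be compared within a column. A table holds 1 FPKM per gene and condition, with both knockdown libraries pooled, so that no difference has a replicate check and no p-value was computed. The steps between low values put the control and USP10 columns at 7850000 to 30100000 fragments, the shallowest being the control of the USP10 table. The pooled knockdown columns gave no estimate. At the estimated depths 32 members had at least 100 fragments in the D6 control, but 17 had fewer than 10 in the D0 control. Intervals below cover counting error only. Huwe1 itself was at 38.3 FPKM in the D0 control and 15.2 FPKM with knockdown, at 35.1 and 21.9 FPKM at D6, and at 55.4 and 33.0 FPKM in myotubes, so that only the D0 pair was 2-fold apart. Usp10 rose from 10.3 to 38.3 FPKM in the overexpressing cells. Usp10 also differed between the D6 columns, at 13.2 FPKM without and 35.4 FPKM with knockdown. Changes are given as log2 ratios of FPKM + 0.01, over genes that reached 1 FPKM in either of the columns compared. A gene is counted as lower or higher when the columns are at least 2-fold apart.

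In control cells the scaffold was nearly silent in myoblasts and abundant after 6 days. Summed over the 36 members, the level was 493 FPKM at D0 and 11324 FPKM at D6, and the median member went from 0.193 to 155.5 FPKM. At D0 only 11 members reached 1 FPKM and 5 reached 10 FPKM, whereas at D6 32 members reached 10 FPKM and 22 reached 100 FPKM. These columns come from tables that were normalized separately, so the contrast is a description. Of 34 members kept in it, 32 were higher at D6, where 21.5% of all 11653 genes kept were, and 31 were at least 8-fold higher, against 7.31% of all genes. The single lower one was Xirp2, whose D6 estimate failed, and Pdlim5 was within 2-fold. Over the 26 members above 0 in both columns the median log2 ratio was 7.05. Most members were kept in this contrast through their D6 value, which favours a rise. With 1 FPKM required in both columns 10 members were kept, of which 9 were higher, with a median of 4.86.

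The 5 members already at 10 FPKM or more in myoblasts were Des, Pdlim5, Actn3, Flnc and Pdlim3. Desmin, the muscle intermediate filament protein encoded by Des (mm10 chr1:75360344-75367715), stood at 345 FPKM in the D0 control, more than all other members together, and reached 1769 FPKM at D6. Pdlim5, which encodes the PDZ and LIM domain protein ENH (chr3:142239585-142395696), was at 41.0 and 79.3 FPKM, a 1.93-fold difference. By contrast, 7 members were listed at 0 in myoblasts, among them Csrp3 (369 FPKM at D6), Smpx (231 FPKM) and Cap2 (196 FPKM), and no fold is given for them. Nebulin (Neb, chr2:52136647-52338798) went from 0.045 to 397 FPKM, with an estimated 22 fragments behind the lower value. Titin (Ttn, chr2:76703984-76982547) rose from 0.988 to 64.6 FPKM. The most abundant members at D6 were Mybph, a myosin-binding protein, at 1973 FPKM, Des, and Actn3, the alpha-actinin of fast muscle fibres, at 1092 FPKM.

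**Figure D1:**
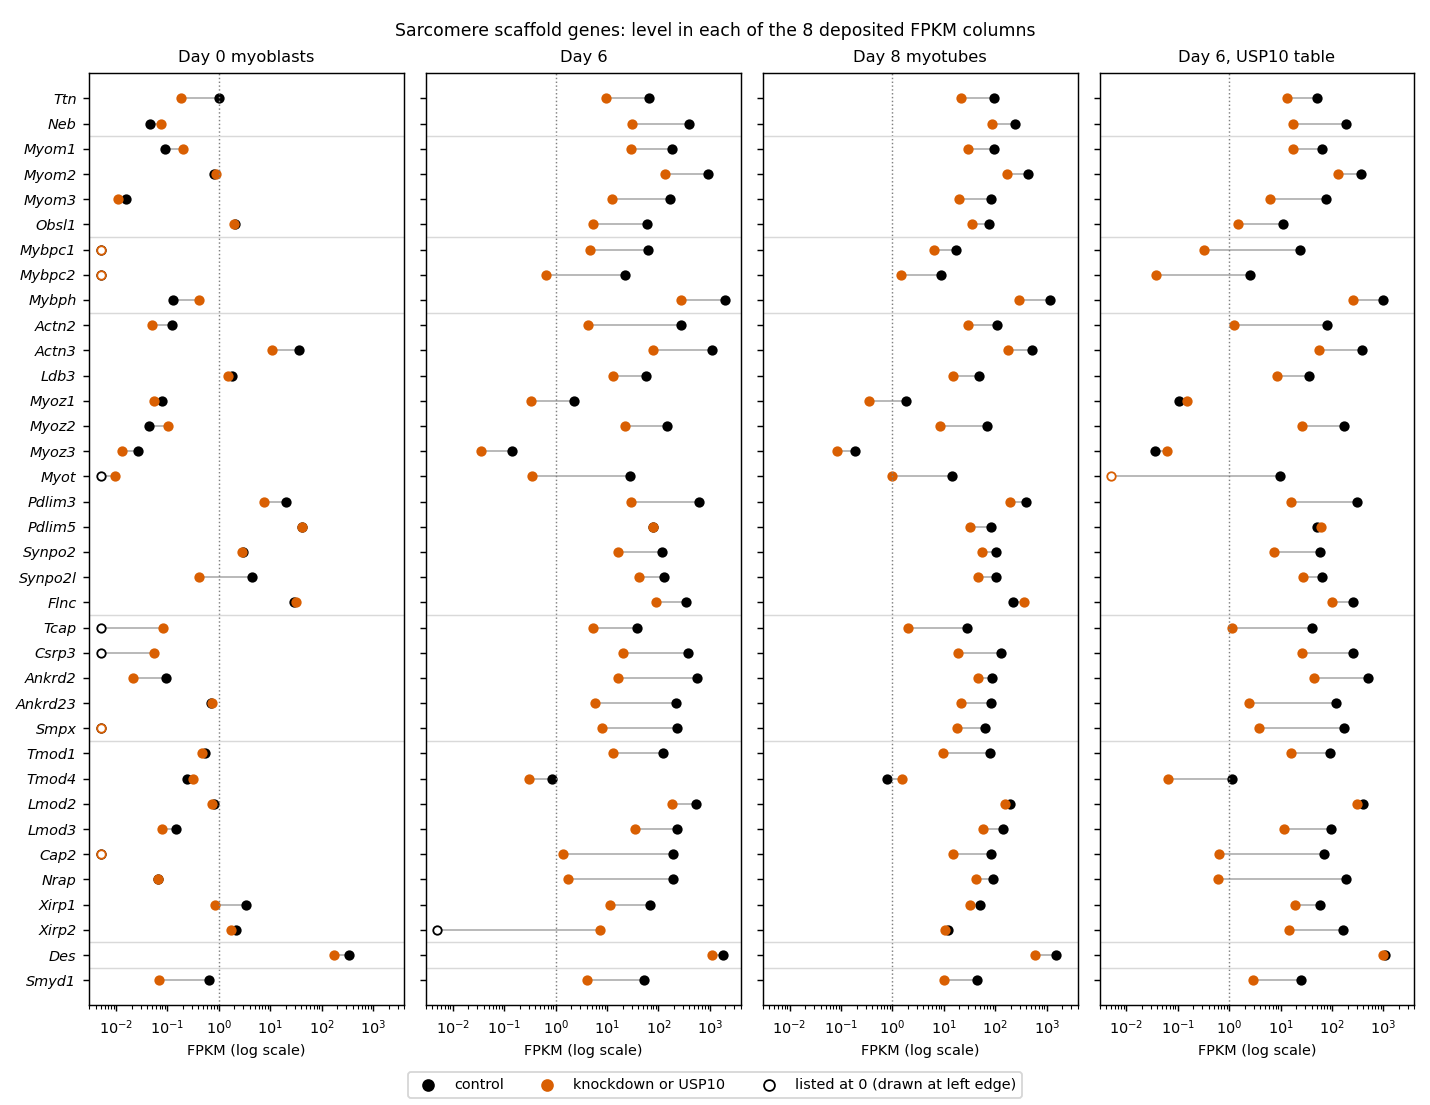
FPKM of each of the 36 scaffold genes (log scale) in the 8 deposited columns, with black points for the control, orange points for Huwe1 knockdown or USP10 overexpression, open points for values listed at 0, and a dotted line at 1 FPKM. In the D6 panel the orange points lie to the left of the black ones for all members but Pdlim5, where they coincide, and Xirp2, whose estimate failed.

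Nearly the whole scaffold was lower in Huwe1 knockdown cells at D6. Of 34 members kept, 31 were lower than in the control, where 13.4% of all 11695 genes kept were, and 17 were at least 8-fold lower, against 3.25% of all genes. The median log2 ratio of the members was -3.06, beside -0.01 for all genes, and -3.24 over the 33 members above 0 in both columns. Their summed level was 2266 FPKM, which is 20.01% of the control. In bulk RNA fewer myotubes and less RNA per myotube cannot be told apart. The 5 largest decreases were those of Cap2, Nrap, Myot, Actn2 and Ankrd23. Within 2-fold were Pdlim5 and Des, while Myoz3 and Tmod4 stayed under 1 FPKM in both columns.

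Cap2, which encodes a cyclase-associated actin-binding protein of striated muscle (chr13:46501903-46650281), fell from 196 to 1.40 FPKM, 0.715% of control. Nrap, an actin-binding protein of nascent myofibrils and the myotendinous junction (chr19:56287938-56390035), fell from 194 to 1.74 FPKM, 0.895% of control. The capping and nucleating proteins of thin filament ends in the same class lost less. Tmod1, the tropomodulin that caps pointed ends, fell from 123 to 13.1 FPKM, Lmod3, a leiomodin that nucleates actin, from 230 to 35.6 FPKM, and its relative Lmod2 from 526 to 187 FPKM. Xirp1, a Xin repeat protein that binds actin, fell from 68.9 to 11.4 FPKM.

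In the Z-disc core 10 of 11 members kept were lower, and their median log2 ratio was -2.76. Alpha-actinins crosslink the thin filaments of neighbouring sarcomeres. Actn2 fell from 278 to 4.30 FPKM (log2 ratio -6.01), while Actn3 fell from 1092 to 77.0 FPKM (log2 ratio -3.83). Myotilin (Myot), a partner of alpha-actinin and filamin C, fell from 27.4 to 0.34 FPKM. Pdlim3, the alpha-actinin-associated LIM protein, fell from 611 to 29.1 FPKM, and its relative Pdlim5 stayed at 79.3 and 79.1 FPKM. Ldb3, which encodes the Z-disc protein ZASP, fell from 57.9 to 12.9 FPKM. Calsarcins bind calcineurin at the Z-disc, and the abundant member, Myoz2, fell from 144 to 22.8 FPKM, whereas Myoz1 was at 2.32 and 0.333 FPKM. Synpo2, an actin-binding Z-disc protein, fell from 117 to 16.6 FPKM and its relative Synpo2l from 128 to 42.0 FPKM. Filamin C (Flnc) fell from 339 to 87.9 FPKM.

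The stretch sensors, proteins that sit at the Z-disc or on the I-band part of titin, were the class with the lowest median log2 ratio among those with more than 1 member, -4.83, and all 5 were lower. Ankrd23 and Ankrd2, muscle ankyrin repeat proteins that bind titin, fell from 222 to 5.70 FPKM and from 556 to 16.6 FPKM. Smpx, a small muscle protein, fell from 231 to 8.10 FPKM. Csrp3, muscle LIM protein, fell from 369 to 20.8 FPKM. Telethonin (Tcap), which joins the ends of titin in the Z-disc, fell least in this class, from 38.5 to 5.31 FPKM.

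Titin fell from 64.6 to 9.43 FPKM and nebulin from 397 to 30.2 FPKM, log2 ratios of -2.78 and -3.72. Among M-band proteins, the myomesins that crosslink thick filaments stood at 187 against 29.6 FPKM (Myom1), 936 against 132 FPKM (Myom2) and 167 against 12.2 FPKM (Myom3), control first. Obsl1, a relative of obscurin that links titin and myomesin, fell from 59.3 to 5.35 FPKM. Of the myosin-binding proteins, Mybpc1 fell from 63.1 to 4.58 FPKM, Mybpc2 from 22.7 to 0.657 FPKM, and Mybph from 1973 to 269 FPKM. Smyd1, a muscle methyltransferase needed for myofibril assembly, fell from 52.9 to 4.03 FPKM. Des moved less than any of these, from 1769 to 1083 FPKM, and made up the largest part of the summed level in the knockdown.

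**Figure D2:**
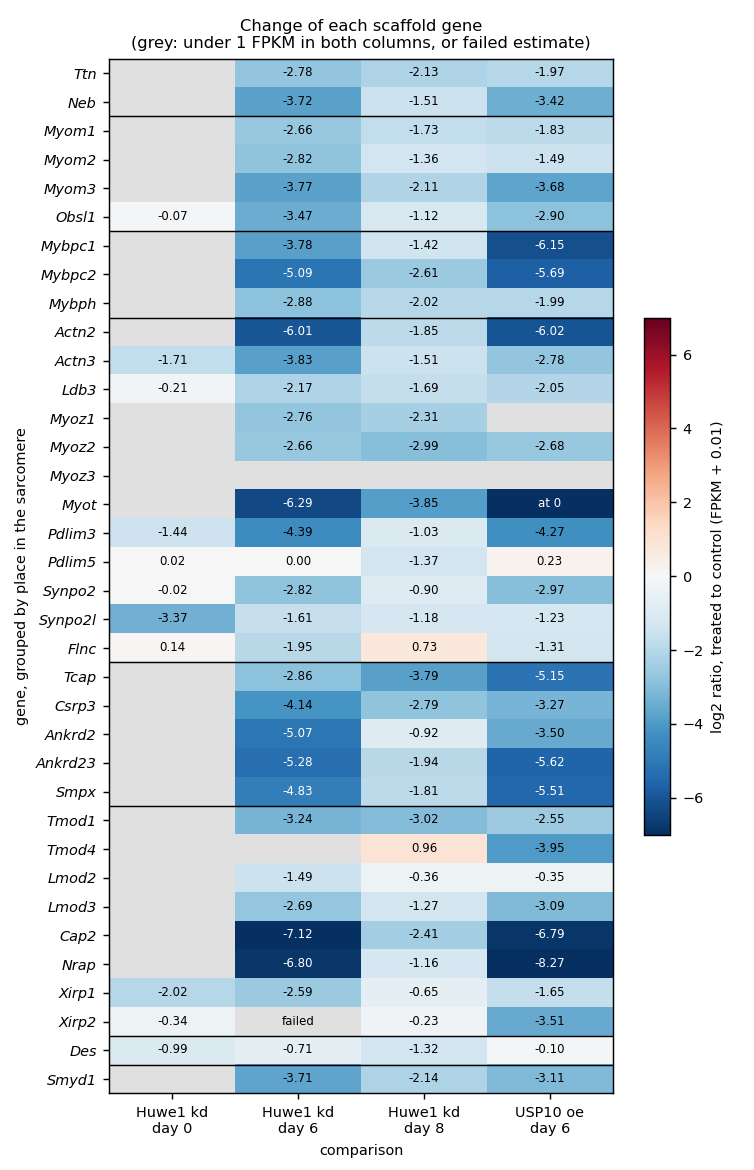
Log2 ratio of treated to control (FPKM + 0.01) for each scaffold gene, with genes in rows grouped by class and the 4 comparisons in columns. Blue cells are lower and red cells higher in treated cells, grey cells were under 1 FPKM in both columns or failed, and the cell of Myot with USP10 reads at 0 for its listed value. The D6 and USP10 columns hold the darkest blue, where the lowest printed ratios are -7.12 for Cap2 and -8.27 for Nrap.

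Although lowered, the scaffold was above its myoblast level in the D6 knockdown. Their summed level, 2266 FPKM there, was 493 FPKM in the D0 control and 278 FPKM in the D0 knockdown. In the D6 knockdown 31 members reached 1 FPKM, of which 9 did so in the D0 knockdown too, so that most were kept in this contrast through their D6 value. Of the 31, 30 were higher than in the D0 knockdown, where 19.1% of all 11594 genes kept were, and 22 at least 8-fold higher, against 5.11% of all genes, with Pdlim5, at 41.5 and 79.1 FPKM, the one within 2-fold. This contrast also crosses tables. The size of the rise differed widely between members. Lmod2 rose 252-fold from 0.741 to 187 FPKM in knockdown cells, beside 652-fold in control cells, whereas Nrap rose 26.5-fold, from 0.066 to 1.74 FPKM, beside 3010.5-fold in control cells. Titin rose 51.3-fold with knockdown and 65.4-fold without it, and nebulin 398-fold and 8822-fold. The control folds of nebulin and Nrap rest on D0 control values of 22 and 8 estimated fragments.

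**Figure D3:**
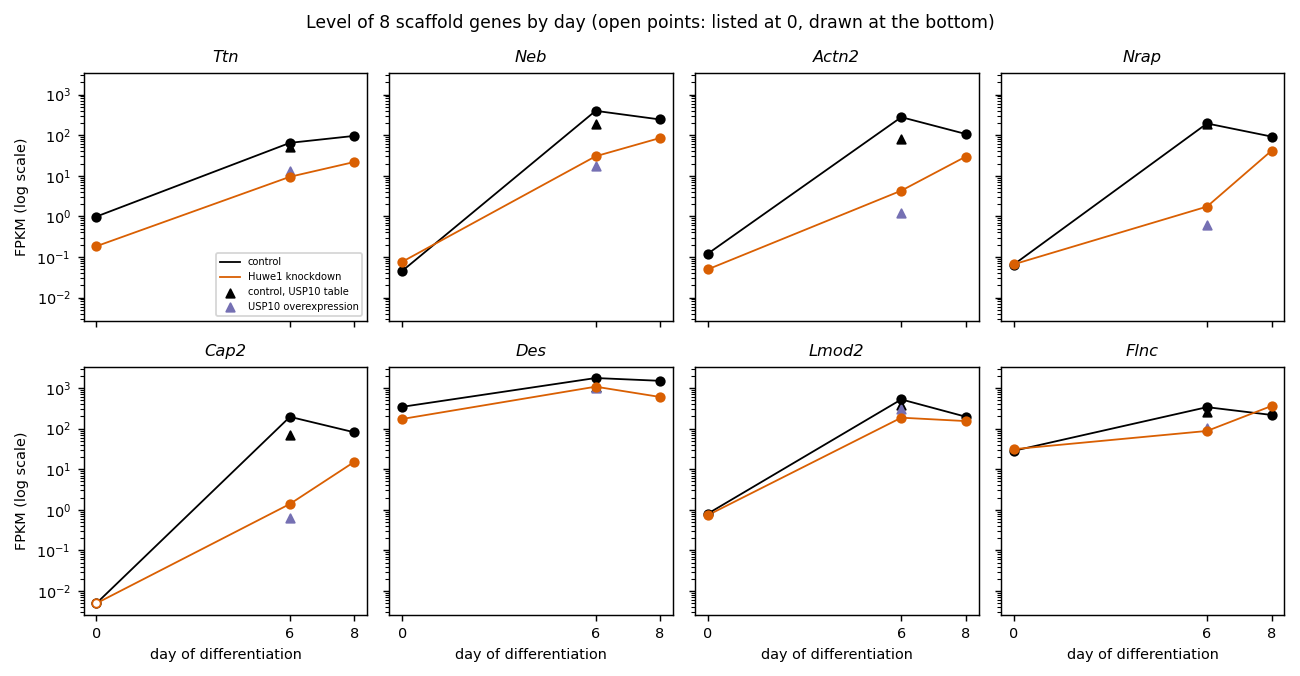
FPKM (log scale) of 8 scaffold genes at day 0, 6 and 8, in control (black circles), Huwe1 knockdown (orange circles), the control of the USP10 table (black triangles) and USP10 overexpression (violet triangles); lines join columns of separately normalized tables. Nrap and Cap2 show the widest gaps at day 6, Des a narrow one, and Flnc is the gene of the 8 whose knockdown point lies above the control at day 8.

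Since the members moved together, their promoters were searched for motifs of muscle gene promoters, in windows from 250 bases before to 50 bases after the annotated start, from RefSeq and build GRCm38.p6. Promoters were found for 27 members, 33 windows in all. The E-box CANNTG, bound by MyoD, myogenin and other basic helix-loop-helix factors, was in 24 of the 33 windows (72.7%), beside 72.3% of all 32851 windows. Its form CAGCTG, which is a part of the E-box count, was in 9 windows (27.3%), beside 16.3% of all. A TATAAA box was in 5 (15.2%), beside 13.6% of all. The MEF2 motif, searched on both strands like the others, was in 7 windows of 6 members (21.2%), beside 3.19% of all windows, and the CArG box of serum response factor in 3 windows of 2 members (9.09%), Ldb3 and Myom1, beside 1.63%. No entry was found for Actn3, Lmod3, Myom2, Myot, Myoz1, Myoz3, Neb, Tcap and Xirp1. A match describes letters, not a bound site.

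The windows with a MEF2 motif are shown for 5 of the 6 members, with the motif in capitals and 20 bases on each side, since this motif was the one whose share among members stood furthest from that of all windows. The choice was made after the counts were seen, and Synpo2 is not shown because its motif lies at the window's end.
Xirp2, 74 bases before the start (plus strand, chr2:67445908-67445957): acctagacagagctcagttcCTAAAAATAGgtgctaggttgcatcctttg
Ttn, 166 bases before the start (minus strand, chr2:76982684-76982733): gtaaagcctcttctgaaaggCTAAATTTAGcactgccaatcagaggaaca
Myoz2, 33 bases before the start (minus strand, chr3:123034991-123035040): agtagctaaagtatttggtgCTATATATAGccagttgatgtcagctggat
Myom3, 35 bases before the start (plus strand, chr4:135759660-135759709): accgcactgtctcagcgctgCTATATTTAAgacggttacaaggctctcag
Synpo2l, 109 bases before its distal start (minus strand, chr14:20668434-20668483): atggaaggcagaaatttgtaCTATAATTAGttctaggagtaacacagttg
Synpo2l, 144 bases before its other start (minus strand, chr14:20664689-20664738): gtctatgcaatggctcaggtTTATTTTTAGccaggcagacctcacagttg
These members were not those of largest loss at D6, since their log2 ratios were -2.78 (Ttn), -2.66 (Myoz2), -3.77 (Myom3), -2.82 (Synpo2) and -1.61 (Synpo2l), with none for Xirp2.

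The 250 bases before the start are shown for the members with the largest and the smallest loss summed over the D6, myotube and USP10 comparisons, with E-boxes in capitals. By this rule Myot came first, and Cap2 and Nrap, shown here, followed it.
Cap2 (plus strand, chr13:46501653-46501902): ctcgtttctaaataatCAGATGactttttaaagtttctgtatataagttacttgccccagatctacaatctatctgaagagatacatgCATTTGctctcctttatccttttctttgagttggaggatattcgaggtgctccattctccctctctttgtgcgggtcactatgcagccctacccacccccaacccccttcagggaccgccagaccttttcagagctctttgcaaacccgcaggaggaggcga
Nrap (minus strand, chr19:56390039-56390288): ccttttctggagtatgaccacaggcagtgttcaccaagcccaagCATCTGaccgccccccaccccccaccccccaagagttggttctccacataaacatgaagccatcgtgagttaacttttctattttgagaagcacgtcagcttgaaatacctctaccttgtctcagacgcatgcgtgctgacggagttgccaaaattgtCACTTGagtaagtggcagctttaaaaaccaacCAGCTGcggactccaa
Pdlim5 (minus strand, chr3:142395697-142395946): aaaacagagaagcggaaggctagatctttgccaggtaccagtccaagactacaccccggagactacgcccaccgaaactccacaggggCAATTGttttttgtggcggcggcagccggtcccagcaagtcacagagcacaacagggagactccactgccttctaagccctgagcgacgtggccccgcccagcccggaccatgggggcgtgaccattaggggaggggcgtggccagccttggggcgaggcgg
Des (plus strand, chr1:75360042-75360291): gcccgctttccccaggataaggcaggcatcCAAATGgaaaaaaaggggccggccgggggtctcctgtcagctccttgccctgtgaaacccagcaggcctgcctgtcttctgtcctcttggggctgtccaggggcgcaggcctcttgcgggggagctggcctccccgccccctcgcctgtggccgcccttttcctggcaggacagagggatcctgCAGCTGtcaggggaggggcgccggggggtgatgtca
Counted in these bases, Cap2 held 2 E-boxes, Nrap 3, Pdlim5 1 and Des 2. The form CAGCTG was present 1 time each in Nrap, of large loss, and in Des, of small loss.

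The scaffold was lower in USP10 overexpressing cells at D6 as well. These cells were 1 library of a stable line, and their control carries the name of the wildtype D6 control. The effects of USP10 and of making the line cannot be told apart. Of 34 members kept, 31 were lower than in the control of the same table, where 10.0% of all 11482 genes kept were, and 18 were at least 8-fold lower, against 2.57% of all genes. None was 2-fold higher, beside 9.70% of all genes. The median log2 ratio was -3.10, beside 0.05 for all genes, and -3.09 over the 33 members above 0 in both columns. Their summed level fell from 6430 to 2179 FPKM, 33.9% of control. The 5 largest decreases were those of Myot, Nrap, Cap2, Mybpc1 and Actn2. Not lower were Pdlim5, Des and Lmod2, and Myoz1 and Myoz3 were under 1 FPKM in both columns.

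Myot had 9.51 FPKM in the control and was listed at 0 with USP10. At the estimated depth of that library 3 fragments are worth 0.049 FPKM, and the 95% Poisson interval of a count of 0 reaches 0.060 FPKM. Nrap stood at 186 FPKM in the control and 0.596 FPKM with USP10 (95% Poisson interval 0.478 to 0.729, 91 estimated fragments), 0.320% of control. Cap2 stood at 69.5 and 0.619 FPKM (interval 0.477 to 0.790). Actn2 fell from 80.4 to 1.23 FPKM, 1.53% of control, and Actn3 from 391 to 56.8 FPKM. Mybpc1 fell from 23.3 to 0.318 FPKM. Mybpc2 fell from 2.50 to 0.038 FPKM, but only 4 fragments were estimated behind the last value, whose interval ran from 0.011 to 0.102 FPKM. Tmod4, at 1.13 and 0.063 FPKM, rested on 11 and 2 estimated fragments.

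All 5 stretch sensors were at least 8-fold lower with USP10, with a median log2 ratio of -5.15. Smpx fell from 169 to 3.71 FPKM, Ankrd23 from 120 to 2.42 FPKM and Tcap from 41.2 to 1.15 FPKM, while Ankrd2 fell from 497 to 43.8 FPKM and Csrp3 from 253 to 26.2 FPKM. Titin fell from 51.9 to 13.2 FPKM and nebulin from 188 to 17.5 FPKM. In the M-band the values were 63.3 and 17.8 FPKM for Myom1, 372 and 132 FPKM for Myom2, 77.7 and 6.08 FPKM for Myom3 and 11.2 and 1.49 FPKM for Obsl1. Mybph, at 1001 and 251.2 FPKM, Smyd1, at 24.7 and 2.84 FPKM, and Lmod3, at 96.6 and 11.4 FPKM, were lower too.

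Within the Z-disc core, Pdlim3 fell from 306 to 15.8 FPKM, Synpo2 from 58.7 to 7.51, Ldb3 from 35.1 to 8.46, Myoz2 from 167 to 26.2, Flnc from 253 to 102 and Synpo2l from 63.6 to 27.0 FPKM. Tmod1 (91.5 and 15.6 FPKM), Xirp1 (59.6 and 19.1 FPKM) and Xirp2 (166 and 14.6 FPKM) were lower at the thin filament. Des was at 1053 and 983 FPKM, 93.3% of control, Lmod2 at 394 and 308 FPKM, 78.3% of control, and Pdlim5 at 52.1 and 61.1 FPKM, 117.2% of control. With USP10 the leading 3 members, Des, Lmod2 and Mybph, made up 70.8% of the summed level, beside 39.7% for Des, Mybph and Ankrd2 in the control.

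The D6 control and the control of the USP10 table offer the only view of how far control columns of the same day lay apart. Their column names are the same, but their values and depths are not, and which library the latter was made from is not known. Of 35 members with at least 1 FPKM in either, 31 had a lower value, by any size, in the control of the USP10 table. The share of all genes lower by any size was not counted here. The median log2 ratio of the 35 was -0.98, beside -0.07 for all genes. Of the 34 above 0 in both, 16 were at least 2-fold apart, with a median log2 ratio of -0.99. Among all genes kept 8.66% were at least 2-fold lower and 11.2% higher in the control of the USP10 table. The members furthest apart were Myoz1 at 2.32 and 0.107 FPKM, Mybpc2 at 22.7 and 2.50 FPKM, and Obsl1 at 59.3 and 11.2 FPKM. The Huwe1 change at D6 was larger than this difference for 31 of the 34 members, all but Myoz1, Pdlim5 and Des, beside 62.2% of all 11331 genes above 0 in both controls. The USP10 change was larger for 30, all but Myoz1, Pdlim5, Des and Lmod2, beside 48.4% of all genes. Each change shares a control column with this difference. The D6 knockdown column lay below both controls for 31 of the 34 and the USP10 column for 32, beside 38.0% and 38.5% of all genes.

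**Figure D4:**
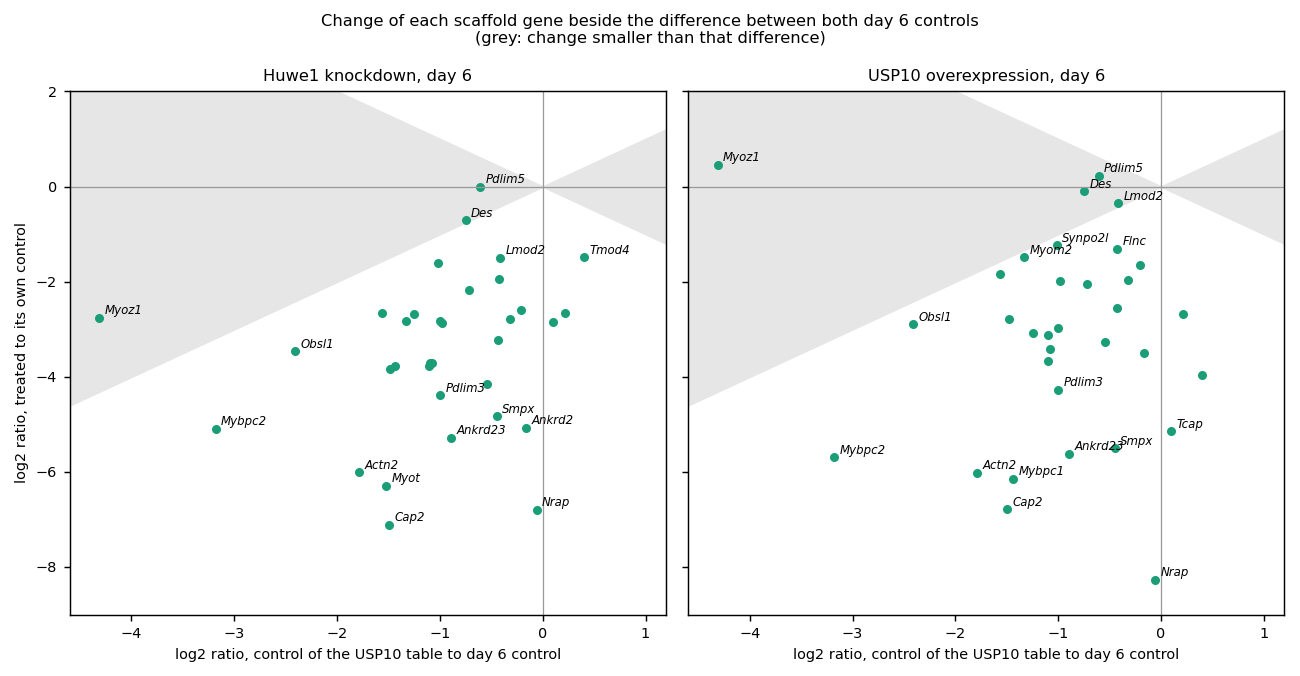
Log2 ratio of each scaffold gene in the D6 knockdown (left) and with USP10 (right) to its own control, against the log2 ratio of the control of the USP10 table to the D6 control. Points inside the grey wedge changed by less than both controls differed, and they are Myoz1, Pdlim5 and Des in each panel, with Lmod2 added on the right. Xirp2 is left out of both panels and Myot of the right one, as they are listed at 0.

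Xirp2, a second Xin repeat protein, shows what a failed estimate does. In the D6 table its status was a failure and the control was listed at 0 and the knockdown at 7.43 FPKM, while the control of the USP10 table held 166 FPKM. No direction is drawn from the D6 pair, although the pair counts as a rise among the 34 members kept. The estimate was completed in the other tables, with 2.17 and 1.72 FPKM at D0 and 12.3 and 10.49 FPKM in myotubes, control first.

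Knockdown begun in differentiating cells gave smaller decreases in myotubes. Of 35 members kept, 28 were lower, where 10.0% of all 11755 genes kept were, and 3 were at least 8-fold lower, against 1.73% of all genes. None was 2-fold higher, beside 7.89% of all genes. The median log2 ratio was -1.51, beside 0.00 for all genes, and the summed level went from 6482 to 2622 FPKM, 40.4% of control. Time, the hairpins as labelled, the start of the knockdown and the kind of control all differ from D6, so their parts cannot be told apart, and the difference between both comparisons was not tested.

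The order of the members was another one here. Myot, from 14.3 to 0.987 FPKM, Tcap, from 27.9 to 2.00, Tmod1, from 78.1 to 9.60, Myoz2, from 68.2 to 8.56, and Csrp3, from 130 to 18.8 FPKM, had the 5 largest decreases. Nrap, second in loss at D6, was at 92.3 and 41.3 FPKM, 44.7% of control, and Cap2 at 81.2 and 15.3 FPKM, 18.8% of control. Actn2 fell from 107 to 29.6 FPKM and Actn3 from 512 to 180 FPKM. Titin fell from 96.0 to 21.9 FPKM and nebulin from 243 to 85.2 FPKM, so that titin lost more than nebulin on the log2 scale (-2.13 and -1.51), in the reverse of their order at D6.

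The M-band and myosin-binding genes were all lower in myotubes. Myom1 stood at 96.5 and 29.0 FPKM, Myom2 at 436 and 170, Myom3 at 84.3 and 19.5, Obsl1 at 76.9 and 35.3, Mybpc1 at 17.5 and 6.53, Mybpc2 at 8.82 and 1.44, and Mybph at 1176 and 290 FPKM. Smyd1 fell from 43.5 to 9.85 FPKM and Des from 1510 to 604 FPKM. In the Z-disc core Pdlim5, at 82.7 and 32.1 FPKM, was now lower, as were Pdlim3 (388 and 189 FPKM), Ldb3 (49.0 and 15.2 FPKM), Synpo2l (105 and 46.3 FPKM) and Myoz1 (1.81 and 0.357 FPKM). Ankrd23 (82.9 and 21.6 FPKM), Smpx (62.2 and 17.8 FPKM) and Lmod3 (140 and 58.3 FPKM) were lower as well.

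The 7 members not 2-fold lower in myotubes were Flnc, Tmod4, Xirp2, Lmod2, Xirp1, Synpo2 and Ankrd2. Flnc stood at 218 and 362 FPKM, control first, which is 166.3% of control. Tmod4, a skeletal muscle tropomodulin, stood at 0.782 and 1.53 FPKM, with 18 estimated fragments in the control. Lmod2 was at 197 and 154 FPKM, Xirp1 at 51.6 and 32.8, Synpo2 at 103 and 54.9, and Ankrd2 at 88.4 and 46.6 FPKM. Between the separately normalized D6 and myotube tables, 30 of 34 members kept had lower values in control myotubes than in the D6 control, beside 44.7% of all genes. Of these 34, 13 were at least 2-fold lower, such as Ankrd2 (556 and 88.4 FPKM), where 5.81% of all 11525 genes kept were. In knockdown cells 25 of 33 kept had higher values in myotubes than at D6, beside 55.8% of all genes.

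In myoblasts, where most of the scaffold is silent, 11 members could be compared and 4 were lower with Huwe1 knockdown, beside 1.69% of all 10874 genes kept. None was 2-fold higher, beside 1.90% of all genes. The lower ones were Synpo2l, from 4.34 to 0.411 FPKM, Xirp1, from 3.38 to 0.828 FPKM, Actn3, from 36.1 to 11.01 FPKM, and Pdlim3, from 20.1 to 7.40 FPKM. Des was at 345 and 173 FPKM, 50.2% of control and just short of 2-fold. Flnc (28.4 and 31.2 FPKM), Pdlim5 (41.0 and 41.5), Synpo2 (2.89 and 2.85), Obsl1 (2.05 and 1.95), Ldb3 (1.78 and 1.53) and Xirp2 (2.17 and 1.72) stayed within 2-fold. The other 25 members were under 1 FPKM in both columns. Ttn was just under this limit, at 0.988 and 0.184 FPKM, and Smyd1 stood at 0.652 and 0.068 FPKM. The summed level was 56.4% of control, most of which is Des.

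Paralogs within a family did not fall alike at D6, so the makeup of a family differed between columns. Actn2 made up 20.3% of the summed Actn2 and Actn3 level in the D6 control and 5.3% in the knockdown, and 17.1% and 2.1% in the USP10 table. Pdlim3 made up 88.5% of the Pdlim3 and Pdlim5 level in the D6 control and 26.9% in the knockdown, beside 85.4% and 20.6% in the USP10 table. In myotubes the Pdlim3 share was 82.4% and 85.5%, so that Pdlim3 and Pdlim5 fell together there. Myom2 was the leading myomesin in every column, with 70.7% to 88.5% of the 3 genes' level, and Myoz2 held more than 95% of the calsarcin level in each D6 and myotube column. Lmod2 made up 69.6% of the Lmod2 and Lmod3 level in the D6 control and 84.0% with knockdown, and 80.3% and 96.4% in the USP10 table. Ankrd2 and Ankrd23 kept nearly the same proportion with knockdown at D6, with Ankrd2 at 71.4% and 74.4%, but not in the USP10 table, where Ankrd2 made up 80.6% and 94.8%.

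With the broadly expressed relatives added, the muscle member held a smaller share of its family in D6 knockdown cells. Cap2 made up 84.5% of the Cap1 and Cap2 level in the D6 control and 1.1% in the knockdown. Cap1, the form of most tissues, was at 35.9 and 126 FPKM in these columns, beside 254 and 243 FPKM at D0. Csrp3 made up 93.5% of the CSRP level and 15.4% after knockdown. The share of Tmod1 among the tropomodulins was 92.0% and 30.3%, and that of desmin beside vimentin 85.7% and 38.0%. In the D0 control the same shares were 0.0% for Cap2, 0.0% for Csrp3, 1.3% for Tmod1 and 6.3% for desmin. In the control of the USP10 table, the muscle members held smaller shares than in the D6 control, such as 48.0% for Cap2 and 57.9% for desmin, and with USP10 these were 0.5% and 40.8%. In myotubes Cap2 made up 40.3% without and 8.1% with knockdown, and desmin 57.5% and 33.4%.

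A list of 19 such relatives and a list of 22 further sarcomere scaffold genes were drawn up from general knowledge, with earlier results of these data known. At D6 18 relatives were kept, of which 12 were higher with knockdown, where 17.6% of all genes were, and 1 was lower, beside 13.4%. Their median log2 ratio was 1.71. Across the separately normalized tables, their median from D0 to D6 was -1.62 in control cells and -0.57 in knockdown cells. The 2 highest ratios of knockdown to control at D6 were those of Lasp1, at 6.58 and 49.0 FPKM, and Csrp2, at 6.09 and 39.2 FPKM, control first. In the D0 control Lasp1 was at 180 FPKM and Csrp2 at 231 FPKM. The lowest ratios at D6 were those of Pdlim4, from 50.3 to 24.5 FPKM, and Smyd2. With USP10 1 relative, Lasp1, was 2-fold higher and 1, Pdlim4, 2-fold lower, beside 9.70% and 10.0% of all genes. The median was 0.57, the other extremes being Pdlim1 and Csrp2. In myotubes 6 of 18 were lower and 0 higher, beside 10.0% and 7.89% of all genes. The median was -0.11, with Lmod1 and Pdlim1 at the low end and Synpo and Cap1 at the high end. At D0 the median was -0.03. Pdlim4 was lower and Lmod1 higher, beside 1.69% and 1.90% of all genes, with Smyd3 and Smyd5 next.

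Of the 22 further scaffold genes 19 were kept at D6. With Huwe1 knockdown 12 were lower and 0 higher, beside 13.4% and 17.6% of all genes. Their median log2 ratio was -2.24. Mypn, the Z-disc protein myopalladin, fell from 55.1 to 1.201 FPKM and Unc45b, a myosin chaperone, from 78.2 to 3.87 FPKM, while Bag3, a chaperone partner, was at 68.0 and 83.6 FPKM and Speg at 14.9 and 15.1 FPKM. With USP10, 10 of 19 were lower and 0 higher, beside 10.0% and 9.70% of all genes. The median was -1.47, with Mypn (15.05 and 0.580 FPKM) and Klhl41 (356 and 17.9 FPKM) lowest and Bag3 and Speg highest. In myotubes 8 of 19 were lower and 1 higher, beside 10.0% and 7.89% of all genes. The median in myotubes was -0.93, with Mypn (25.8 and 3.71 FPKM) and Murc (391 and 97.6 FPKM) lowest. The highest there were Synm, an intermediate filament protein, at 1.25 and 3.41 FPKM, and Cryab. At D0 1 of 11 was lower and 0 higher, beside 1.69% and 1.90% of all genes. The median was -0.10, with Trim55 and Murc lowest and Nexn and Palld highest. The scaffold members had lower medians than this list in each of the 4 comparisons, as counts and medians only.

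**Figure D5:**
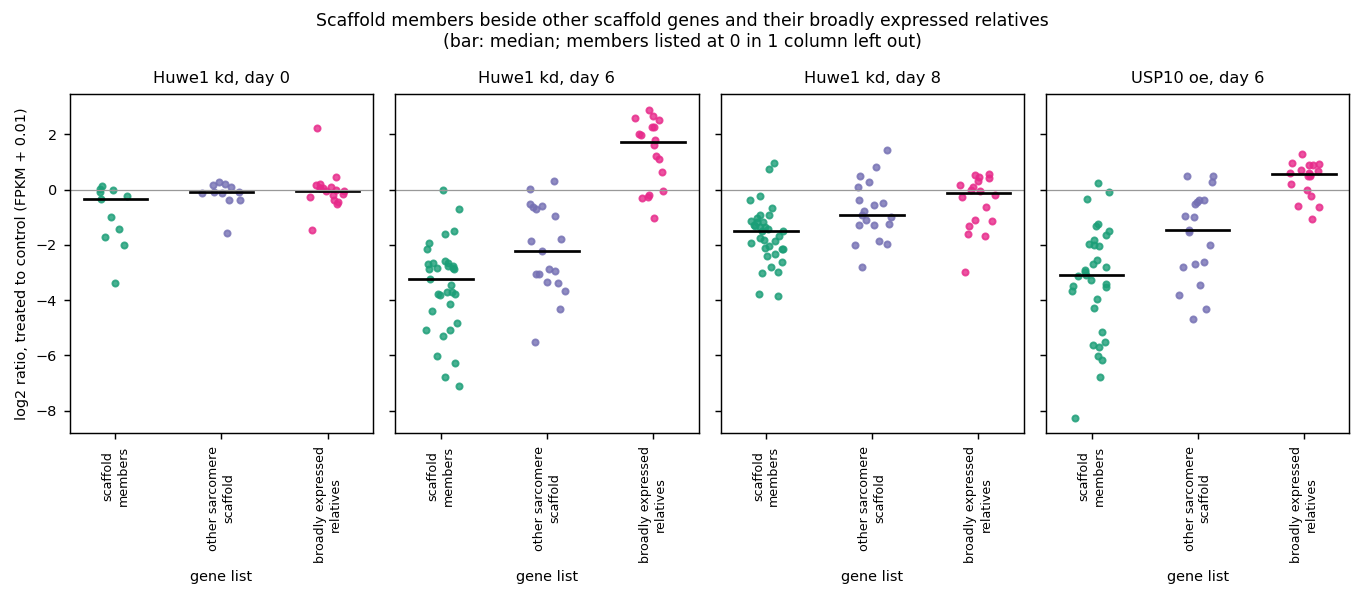
Log2 ratio of treated to control (FPKM + 0.01) for the scaffold members (green), further sarcomere scaffold genes (violet) and broadly expressed relatives (pink), 1 panel a comparison, with a bar at the median and with Xirp2 at D6 and Myot with USP10 left out as they are listed at 0 in 1 column. At D6 the knockdown medians were -3.24, -2.24 and 1.71, and most relatives lie above 0 where most members lie below it.

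Markers of fibroblast and mesenchymal cells were higher with knockdown at D6, where the scaffold was lower. Of 12 fibroblast and mesenchymal markers 11 were kept and 11 were higher with Huwe1 knockdown, beside 17.6% of all genes. Their median log2 ratio was 3.94, and their summed level went from 195 to 5270 FPKM. Decorin (Dcn) rose from 7.94 to 2987 FPKM and Ly6a from 2.54 to 584 FPKM, the lowest ratios were those of Pdgfrb and Pdgfra, and Thy1 was listed at 0 in both columns. With USP10 5 of 11 were higher, beside 9.70% of all genes. The summed level of the markers was 842 and 4617 FPKM, with Dcn at 50.3 and 3037 FPKM and Ly6a also high, while Pdgfrb and Dpt had the lowest ratios. In myotubes, where the scaffold was also lower, 2 of 10 markers were higher (Pdgfra and Dcn) and 2 were lower (Dpt and Ly6a). Of all genes 7.89% were higher and 10.0% lower there. The summed level of the markers in myotubes was 1098 and 1221 FPKM. At D0 the sum was 1041 and 646 FPKM, with 1 of 9 higher and 1 lower, beside 1.90% and 1.69% of all genes. Dcn and Cd34 were highest and Postn and Col1a2 lowest. Some of these genes were high in the D0 control myoblasts too, such as Col1a2 at 653 FPKM, beside 409 FPKM in the D6 knockdown. Others were not, such as Dcn at 1.27 FPKM in the D0 control. Whether other cells were present, and had a part in the scaffold's decrease, was not tested.

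The 8 macrophage and blood markers summed to between 1.90 and 7.51 FPKM over the 8 columns, with Cd68 and Cd14 alone at 1 FPKM or more and Emr1 and Tyrobp listed at 0 throughout. The 6 endothelial markers summed to between 0.247 and 13.6 FPKM. Where the sum was above 1 FPKM it was mostly Cdh5, with Tek next at D6. Their sum was 0.247 and 7.93 FPKM at D6 and 0.809 and 7.32 FPKM with USP10, control first. It was 13.6 and 11.4 FPKM at D0 and 0.458 and 0.482 FPKM in myotubes. Cdh5 stood at 0.024 and 6.83 FPKM at D6 and at 0.278 and 6.81 FPKM with USP10. At D0 Cdh5 was at 13.5 and 11.2 FPKM, and in myotubes at 0.013 and 0.009 FPKM. Of the adipocyte markers, Adipoq and Cfd were listed at 0 in every column. Their list summed to 16.03 and 141 FPKM at D6 and to 37.4 and 234 FPKM with USP10, control first. Most of this was Lpl (9.44 and 130 FPKM at D6, 27.4 and 218 FPKM with USP10). Fabp4 stood at 0.348 and 4.68 FPKM at D6 and at 0.535 and 3.84 FPKM with USP10. Pparg stood at 6.24 and 6.33 FPKM at D6 and at 9.41 and 12.2 FPKM with USP10. The sum of the adipocyte markers was 19.7 and 25.6 FPKM at D0 and 6.998 and 12.6 FPKM in myotubes.

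Regulators of muscle genes were also followed in the controls. From D0 to D6 in control cells, Myod1 went from 21.7 to 155 FPKM and Mef2c from 2.59 to 97.7 FPKM. With knockdown at D6 they were at 62.7 and 10.3 FPKM. Pax7 rose in the controls too, from a listed 0 at D0 to 7.54 FPKM at D6 and 24.7 FPKM in myotubes. Myogenin (Myog) was at 0.164 FPKM in the D0 control, 619 at D6, 392 in myotubes and 305 in the control of the USP10 table, and fell to 27.1, 148 and 28.8 FPKM with knockdown at D6, in myotubes, and with USP10. Of 13 regulators 11 were kept at D6, of which 7 were lower and 1 higher, beside 13.4% and 17.6% of all genes. The median log2 ratio of the regulators was -1.36. Pax7 (7.54 and 0.044 FPKM) and Myog were lowest, and Myf5 (3.51 and 18.5 FPKM) and Srf highest. With USP10 5 of 12 were lower and 1 higher, beside 10.0% and 9.70% of all genes. The median was -0.88, with Pax7 and Myf6 lowest and Myf5 and Mef2d highest. In myotubes 4 of 11 were lower and 0 higher, beside 10.0% and 7.89% of all genes, with a median of -0.25. Mef2c, a MEF2 factor of muscle, fell there from 48.6 to 3.99 FPKM and Myf6 from 1.41 to 0.135 FPKM, whereas Pax7 and Myf5 had the highest ratios. At D0 1 of 8 was lower, beside 1.69% of all genes. It was Myod1, which encodes MyoD, at 21.7 and 9.30 FPKM. Mef2c was next, Srf and Mef2a were highest, and the median was -0.31.

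The order of loss was also set beside transcript length. Across members kept and not listed at 0 in the control, which share the library and are not independent, Spearman's rho between transcript length and log2 ratio was 0.25 over 33 members at D6, 0.32 over 35 in myotubes and 0.27 over 34 with USP10. Titin, of 100404 bases, and telethonin, of 948 bases, had like ratios at D6, -2.78 and -2.86, and differed in myotubes, -2.13 and -3.79.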

How the data were processed

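The authors purified mRNA from C2C12 cells on oligo(dT) beads, made directional libraries (ScriptSeq v2), read them on an Illumina HiSeq, aligned reads with Tophat and ran Cuffdiff between groups. Per the labels, the processing notes name Bowtie2, Cuffdiff and mm10. The annotation and versions are not given in the sources used here. The deposited values are FPKM, scaled by Cuffdiff within each of 4 tables, with 1 value per condition and both knockdown libraries pooled. The tables also hold the authors' fold changes, test statistics, p-values and q-values, which were not used, and a status, which was. The FPKM columns, 8 in all, were each assigned to a group by name.

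Log2 ratios were computed from FPKM + 0.01 over genes that reached 1 FPKM in either column, for the whole table, and genes at least 2-fold or 8-fold apart were counted. There was no test, since no replicate values were given. Contrasts across tables are descriptions, as FPKM were normalized table by table. Depth was estimated from the lowest FPKM steps of genes with 1 transcript of at least 1500 bases. Intervals are exact Poisson, at 95%. Members and lists were chosen with earlier results of these data known. Each member was accounted for, and the 5 largest decreases, the members not 2-fold lower and the 2 extremes at each end of a list were named. The alternatives were pseudocounts of 0.1 and 1, no filter, 5 FPKM in either column, 1 FPKM in each of both columns, estimates of completed status alone and centring on the median gene. The computations were tested on simulated data. Python 3.11.15, numpy 2.4.6, pandas 2.3.3, scipy 1.17.1 and matplotlib 3.10.9 were used. Protein sequences are not used here. 1 gene of the broadly expressed relatives is not reported here.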

Additional observations from a re-analysis of the deposited data

Results flagged for a closer look

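Filamin C (Flnc) moved in opposite directions at the 2 stages of Huwe1 knockdown. Its log2 ratio of knockdown to control was -1.95 at D6, from 339 to 87.9 FPKM, and 0.73 in myotubes, from 218 to 362 FPKM. The change in myotubes was short of 2-fold. With pooled columns the difference between the stages was not tested.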

How the results depend on the processing

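No paired analysis was possible because the tables give each condition as 1 pooled value, and leaving out single replicates was not run for the same reason. With no replicates, a value was taken as having moved when it changed by more than 0.634 on the log2 scale, the robust SD of log2 ratios between both D6 controls over 11459 genes, and a count when it changed by more than 1.5 times. No direction reversed. The counts of lower members and the medians held for D6, myotubes and USP10 under every alternative.

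At D0, members lower and higher were 8 and 5 with no filter, and lower members 2 with a minimum of 5 FPKM, where the median was -0.99, and 2 with 1 FPKM in both columns. The single rise with knockdown at D6, in control myotubes against the D6 control, and in the control of the USP10 table against the D6 control is that of Xirp2, and the count was 0 in each with 1 FPKM in both columns or with completed status only. For control D6 against D0 the median, 9.74 over all kept members, was 8.10 and 5.65 with pseudocounts of 0.1 and 1 and 8.79 with no filter. With 1 FPKM in both columns 9 members were higher, 0 lower, and the median was 4.86. With completed status these were 15, 0 and 4.97, and with 5 FPKM 0 were lower. For knockdown D6 against knockdown D0, a contrast added after the data were seen, the median of 5.84 was 4.88 and 2.70 with these pseudocounts. There 8 members were higher and the median was 2.11 with 1 FPKM in both columns, and 15 and 2.999 with completed status. Of the values of single members and contrasts 105 moved, all of them with a larger pseudocount (38 at 0.1 and 67 at 1), and 1508 did not. The depth limits low levels: in the USP10 table's control column, 1 FPKM on a 2 kilobase transcript stands for 15.7 fragments.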
